A study of Mus musculus with 3 samples.

Results

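The IL-1 family receptors and adaptors described here are 10 mouse genes: the receptor chains Il1rl1, Il18r1, Il18rap, Il1r1, Il1r2 and Il1rap, and the signalling components Myd88, Irak1, Irak4 and Traf6. They were chosen by symbol through their GENCODE M21 gene identifiers, and all 10 were found among the 55536 mouse genes of the deposited gene tables, with 60 annotated transcripts between them. Levels came from polyA plus RNA-seq of activated regulatory T cells, written Treg below, a class of CD4 T cells that depends on the transcription factor Foxp3 and holds other immune cells in check. The cells were primary cells of male mouse origin, aged 3 weeks. There was 1 group of 3 libraries, labelled technical replicates 1, 2 and 3 of 1 biological replicate and called libraries 1, 2 and 3 below. The labels give no genotype, strain or means of activation, and name the whole organism as the source. With no second group, the design allowed the level of each gene, its order among the others and its difference between libraries to be measured. Every SD is the spread between these technical libraries, not between animals, and every p-value measures differences between these libraries only.

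Receptors of this family work as pairs: a ligand-binding chain meets its cytokine, an accessory chain joins it, and the TIR domains inside the cell come together to recruit MyD88. MyD88 then gathers the kinases IRAK4 and IRAK1, which hand the signal to the ubiquitin ligase TRAF6 and on to NF-kappaB and MAP kinases. In Treg the family is best known for ST2, the IL-33 receptor encoded by Il1rl1, which marks Treg of barrier and fat tissue, and for the decoy IL-1R2, which activated Treg carry.

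Reads assigned to mouse genes numbered 30362106, 28419151 and 31959751 in libraries 1, 2 and 3. Levels are given in TPM, a scaled transcript abundance that is divided by gene length and so can be compared between genes, and a gene is called detected at 1 TPM or more in every library. The labelled cell type was checked with 8 Treg identity genes, all of which were detected, and Foxp3 had 134.5, 149.6 and 106.3 TPM. The libraries were not alike: 7 red cell genes summed to 14030 TPM in library 1, against 1180 and 811 TPM in libraries 2 and 3, and longer genes tended to have lower values in library 3 (Spearman's rho across 17190 genes of −0.27, against 0.16 and 0.19 in libraries 1 and 2). Whether either difference touches the genes below was not tested beyond the length adjustment given with them.

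All 10 genes were detected, against 48.1% of 22028 protein-coding genes. With all transcripts of a gene counted, the kinase Irak1 stood highest with a mean of 158 ± 34.1 TPM (SD, n = 3 for every mean here). The decoy receptor Il1r2 followed at 111.8 ± 21.7 TPM and the adaptor Myd88 at 96.3 ± 9.64 TPM. Il1rl1 averaged 65.3 ± 41.8 TPM, Il18r1 42.2 ± 18.4 TPM, Traf6 29.1 ± 4.72 TPM, Il18rap 25.6 ± 18.7 TPM and Irak4 24.3 ± 5.16 TPM. The accessory chain Il1rap, at 6.61 ± 0.426 TPM, and the signalling IL-1 receptor Il1r1, at 1.80 ± 0.578 TPM, closed the order. Among protein-coding genes, 95.3% had a lower mean TPM than Irak1, 92.7% than Il1r2, 86.9% than Il1rl1 and 52.2% than Il1r1. Unless stated otherwise, every log2 ratio here and below is a difference of log2(TPM + 1). The added 1 TPM narrows the ratios of genes or forms with low TPM. A difference between neighbours in this order was called larger than the spread where the log2(TPM + 1) difference had 1 sign in all libraries and its mean exceeded 2 SD. That held for 3 of the 9 neighbouring pairs: Irak1 over Il1r2 (0.49 ± 0.16), Irak4 over Il1rap (1.72 ± 0.21) and Il1rap over Il1r1 (1.46 ± 0.29). Irak1 over Il1r2 missed the limit at 3 SD and, at 0.21, in the smaller gene table per effective length, and the number of such neighbours ranged from 2 to 4 over the alternatives. In deposited TPM of all 3 libraries, the genes from Il1r2 down to Irak4 followed each other without a step beyond the spread. Some alternatives did give a step there. In the smaller gene table per effective length, Il1r2 over Myd88 (1.24) and Il18r1 over Traf6 (1.18) passed. So did Il1r2 over Myd88 without library 1 (0.11), Myd88 over Il1rl1 without library 2 (1.19) and Il18r1 over Traf6 without library 3 (0.66). No test was run on these differences, because 3 libraries cannot give a two-sided sign-flip p below 0.25.

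**Figure D1:**
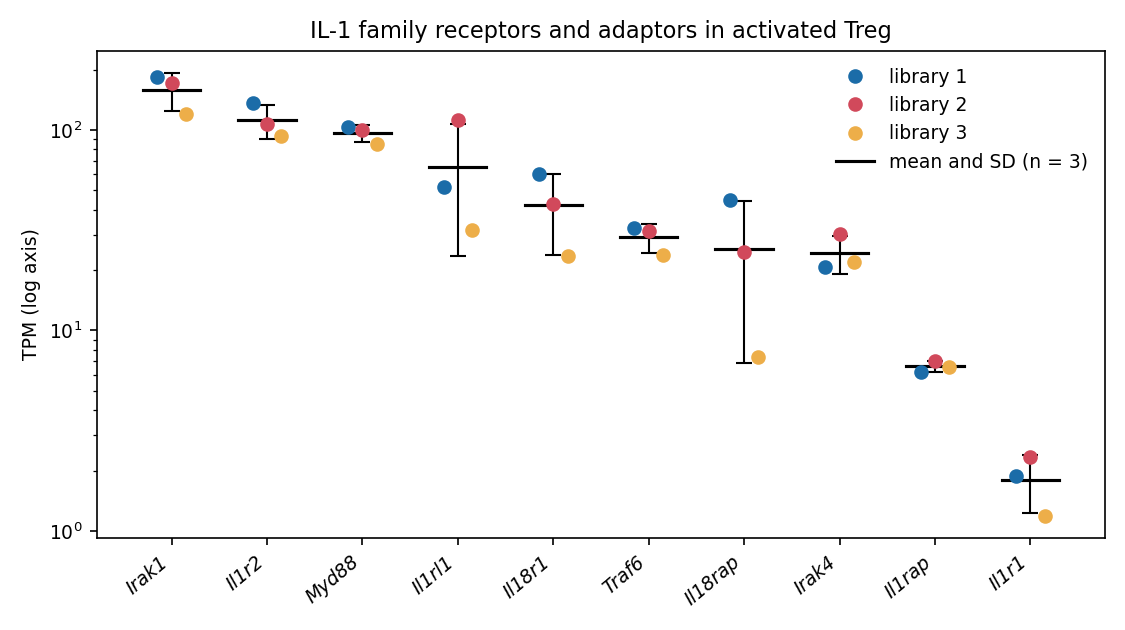
TPM of the 10 genes on a log axis, with 1 point per library and the mean and SD as black lines, ordered by mean. Il1rl1, Il18r1 and Il18rap spread most widely, while the points of Il1rap and Myd88 lie close together and Il1r1 is lowest in every library.

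Il1rl1 (ENSMUSG00000026069.15, mm10 chr1:40429570-40465415, plus strand) encodes ST2 in a membrane form, which signals, and a soluble form, which binds IL-33 without signalling. Its level was 52.1, 112.2 and 31.8 TPM in libraries 1, 2 and 3, from 4086, 8219 and 2639 expected reads. Library 2 thus held more than the others together. In CPM, reads scaled to the size of the library, the highest library exceeded the lowest 3.71-fold, and 3.46-fold after a trend on gene length was removed.

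The annotation gives Il1rl1 2 transcripts of the membrane form, Il1rl1-201 and Il1rl1-202, and 2 of the soluble form, Il1rl1-203 and Il1rl1-205. The coding sequences run together for 985 bases (328 codons) and then part. The GENCODE M21 transcripts are shown around that point because the letters after it decide which receptor is made, in lower case for the last 30 shared bases and in capitals for the bases of each form alone. The membrane form skips from an exon end to chr1:40450075 and reads on for 239 more codons. The soluble form continues without a splice at chr1:40446676 and reaches its stop codon in the 29 bases shown, at chr1:40446704.
Il1rl1-201, membrane: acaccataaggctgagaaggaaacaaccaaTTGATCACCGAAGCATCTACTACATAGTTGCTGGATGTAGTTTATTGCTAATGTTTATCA
Il1rl1-203, soluble: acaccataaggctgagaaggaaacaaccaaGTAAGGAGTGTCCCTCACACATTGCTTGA

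The membrane form made up 70.5%, 73.5% and 65.8% of Il1rl1 TPM in libraries 1, 2 and 3, and the soluble form 29.5%, 26.5% and 18.0%. Membrane over soluble was therefore 2.39, 2.78 and 3.66 in TPM, a log2 ratio of 1.45 ± 0.25 that was larger than the spread. The same order held in every library, although the total level of the gene differed over 3-fold. In library 3 a further 16.2% was assigned to Il1rl1-204, a short coding fragment at the 5′ end with 37 reads there and 0 in the other libraries. The deposited limits of its 5.14 TPM in library 3 were 0.73 and 7.36 TPM. They overlap those of libraries 1 and 2, whose upper limits were 3.54 and 7.03 TPM. The soluble transcripts are shorter, so their share of reads, at 11.6%, was less than their 24.7% share of TPM.

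Il1rl1 transcripts also differ in where they begin. The most upstream start, that of the soluble Il1rl1-205, took 13.5%, 16.3% and 6.68% of Il1rl1 TPM, and the starts of Il1rl1-202 and Il1rl1-203 about 10 kb downstream of it took 28.0%, 21.8% and 16.3%. The fragment Il1rl1-204 begins between them, at chr1:40436589. Most of the level, 60.4 ± 1.71%, was assigned to Il1rl1-201, which begins at chr1:40440628. RefSeq (GRCm38.p6) gives Il1rl1 a promoter window at the most upstream start, chr1:40429320-40429619, and another at the start of Il1rl1-202, chr1:40439379-40439678, both on the plus strand. They are shown because both carry letters of the kind that GATA factors bind, and the factor Gata3 is linked to ST2 Treg. Capitals mark every TGATAA or AGATAA on either strand, so that TTATCT is AGATAA read on the minus strand.
Upstream start: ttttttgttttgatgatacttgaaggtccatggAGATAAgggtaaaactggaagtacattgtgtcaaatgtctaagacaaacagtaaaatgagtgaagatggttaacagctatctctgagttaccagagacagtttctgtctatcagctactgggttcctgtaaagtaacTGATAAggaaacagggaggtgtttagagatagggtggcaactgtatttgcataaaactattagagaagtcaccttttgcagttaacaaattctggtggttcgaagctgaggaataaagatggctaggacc
Il1rl1-202 start: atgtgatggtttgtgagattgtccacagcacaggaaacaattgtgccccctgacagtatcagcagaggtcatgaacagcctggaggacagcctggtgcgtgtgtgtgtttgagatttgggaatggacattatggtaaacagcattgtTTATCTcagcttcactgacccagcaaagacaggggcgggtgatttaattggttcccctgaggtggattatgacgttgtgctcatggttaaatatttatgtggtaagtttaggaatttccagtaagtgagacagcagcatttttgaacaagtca

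The upstream window held 2 matches and the other 1. Of 32851 RefSeq promoter windows of the same 300 bases, 9.05% hold TGATAA, 11.2% hold AGATAA, 18.6% hold either and 3.26% hold 2 or more matches. The 10 genes have 15 such windows, and 4 windows, of Il1rl1, Il1r2 and Il18rap, held a match. A match describes letters only, and no binding was measured. Gata3 had 183.7, 167.8 and 82.1 TPM in libraries 1, 2 and 3. Gata3 was highest in library 1 and lowest in library 3, whereas Il1rl1 was highest in library 2, and 46.2% of all tested genes had their lowest TPM in library 3.

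Il18r1 (ENSMUSG00000026070.15, chr1:40465552-40500854, plus strand) and Il18rap (ENSMUSG00000026068.11, chr1:40515362-40551705, plus strand) encode the ligand-binding and accessory chains of the IL-18 receptor. Il18r1 had 60.2, 42.8 and 23.5 TPM and Il18rap 44.8, 24.5 and 7.38 TPM in libraries 1, 2 and 3. Both chains were highest in library 1, between in library 2 and lowest in library 3. Il18r1 exceeded Il18rap 1.35, 1.74 and 3.19-fold in the same libraries, a log2 ratio of 0.92 ± 0.58 that had 1 sign throughout but did not pass 2 SD. Leaving out library 1 or library 3 brought it past that limit, at 1.16 without library 1 and 0.60 without library 3, with only 2 libraries behind each value.

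Il18r1 has 3 full-length and 3 shorter coding transcripts. The full-length Il18r1-206 and the shorter Il18r1-204 share 1102 coding bases (367 codons), after which the full-length form has 170 further codons, which encode the intracellular TIR domain, and the shorter one ends within 17 bases. The sequences are set out as for Il1rl1, since here too the shorter form continues without a splice. What is lost differs: the forms of Il18r1 part at the TIR domain, and the shorter form is not taken here to be soluble.
Il18r1-206, full-length: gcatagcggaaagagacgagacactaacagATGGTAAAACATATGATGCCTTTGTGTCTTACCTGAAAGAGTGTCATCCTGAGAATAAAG
Il18r1-204, shorter: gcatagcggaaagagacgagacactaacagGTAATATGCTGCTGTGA

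The full-length transcripts took 30.5%, 54.5% and 41.5% of Il18r1 TPM and the shorter ones 69.5%, 45.5% and 58.5% in libraries 1, 2 and 3. The shorter form was the larger in libraries 1 and 3 and the smaller in library 2, and its log2 ratio over the full-length form, 0.45 ± 0.70, did not exceed the spread. By reads rather than TPM the shorter transcripts took 40.7%, so the order of the forms turned with the scale. Of these, Il18r1-204 took 31.4 ± 2.01% of the TPM. Il18r1-205, with 16.7 ± 7.27%, ends its reading frame earlier, inside the shared exon. Il18rap was mostly its 1 coding transcript, Il18rap-201, at 83.4 ± 7.35%, and the rest fell to 3 retained-intron transcripts.

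Il1rap (ENSMUSG00000022514.14, chr16:26581704-26730117, plus strand) encodes the accessory chain that both ST2 and the IL-1 receptor need in order to signal. It had 6.20, 7.05 and 6.58 TPM in libraries 1, 2 and 3, with an SD of 6.44% of its mean, the smallest of the 10 genes in deposited TPM. In CPM after the length trend was removed it differed 1.205-fold between libraries, more than Myd88 (1.11-fold) and Traf6 (1.13-fold). Il1rl1 exceeded it 8.40, 15.9 and 4.83-fold in TPM, a log2 ratio of 2.94 ± 0.85 larger than the spread. Thus the transcripts of the ligand-binding chain outnumbered those of its accessory chain in every library, while Il1r1 stood below Il1rap with a log2 ratio of −1.46 ± 0.29.

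Il1rap also comes in a membrane form, Il1rap-201, and a shorter form, Il1rap-206, known to be secreted. Their coding sequences share 1051 bases (350 codons), after which the membrane form has 220 more codons and the shorter form 32 bases up to its stop.
Il1rap-201, membrane: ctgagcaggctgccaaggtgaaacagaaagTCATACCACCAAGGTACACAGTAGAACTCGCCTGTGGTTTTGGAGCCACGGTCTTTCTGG
Il1rap-206, shorter: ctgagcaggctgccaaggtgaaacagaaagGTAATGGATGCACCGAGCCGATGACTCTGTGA

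The membrane form took 84.5%, 86.5% and 76.3% of Il1rap TPM in libraries 1, 2 and 3 and the shorter form 14.0%, 13.5% and 15.5%. Membrane over shorter was 6.02, 6.42 and 4.92 in TPM. As log2(TPM + 1) the difference was 1.73 ± 0.14, larger than the spread but narrowed by the added 1 TPM. The shorter form rested on 37, 38 and 51 reads and took 7.98% by reads. Il1rap-202 and Il1rap-203, which carry a different C-terminal end, were together assigned 7 reads in library 1 and 0 in the other libraries. These are estimates: their mean share was 0.484% in TPM and 1.21% in posterior mean TPM. A nonsense-mediated decay transcript, Il1rap-205, was assigned 8.21% in library 3, from 18 reads, and 0 reads in the other libraries. Its 0.54 TPM in library 3 lay below the deposited upper limits of 0.83 and 1.11 TPM in libraries 1 and 2.

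The 3 shorter receptor forms shown part from the full-length form in the same way. In each, the coding sequence runs on into what is an intron of the full-length form, with no splice between the last shared and the first own base, and the own letters open with GTAA. Those letters are the start of that intron, where the splice donor lies, so they follow from the missing splice and are no separate likeness. Il18r1-205, not shown, ends its reading frame earlier and has no such coding letters. From the first own base to the 3′ end, Il1rl1-203 has 1473 bases of its own, Il1rap-206 has 1120 and Il18r1-204 has 364. The deposited tables do not separate reads of such forms from reads of full-length RNA whose intron had not been removed, and the part of such RNA in these shares was not tested.

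**Figure D2:**
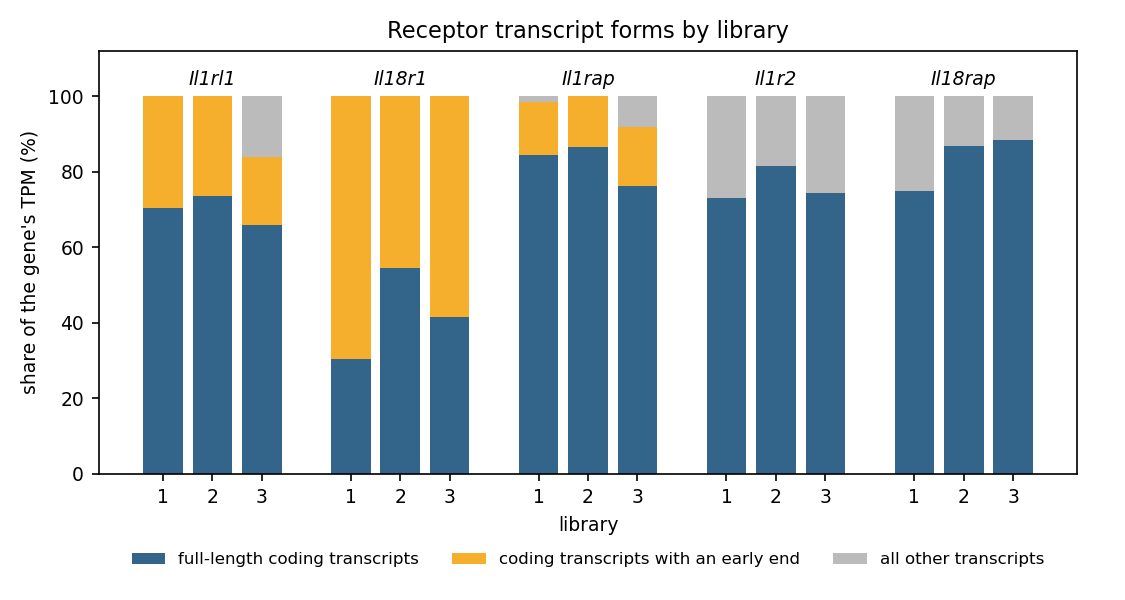
Share of each receptor gene's TPM, in percent, taken by full-length coding transcripts (blue), coding transcripts with an early end (yellow) and all others (grey), 1 bar per library. The full-length share is 65.8% to 73.5% for Il1rl1 and 76.3% to 86.5% for Il1rap, and 30.5% to 54.5% for Il18r1. The Il1r2 and Il18rap bars have no yellow part.

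Il1r2 (ENSMUSG00000026073.13, chr1:40074079-40125231, plus strand) encodes the decoy receptor that binds IL-1 but lacks a TIR domain, and Il1r1 (ENSMUSG00000026072.12, chr1:40225080-40317257, plus strand) encodes the receptor that signals. Il1r2 had 135.5, 106.7 and 93.0 TPM and Il1r1 1.87, 2.34 and 1.19 TPM in libraries 1, 2 and 3. The decoy exceeded the signalling receptor 72.5, 45.6 and 78.1-fold in TPM in the same libraries. As log2(TPM + 1) the difference was 5.34 ± 0.29, narrowed by the added 1 TPM because Il1r1 was so low. With 0.1 TPM added instead it was 5.91. This pair was the widest of the 10 compared, and it rested on 113 to 175 Il1r1 reads per library. Il1rl1 exceeded Il1r1 by a log2 ratio of 4.40 ± 0.61, also beyond the spread. Il1r2 over Il1rl1 was 0.94 ± 0.88 and did not pass, since Il1rl1 was slightly the higher in library 2. Without library 2 that ratio was 1.44 and passed.

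The full-length Il1r2-201 took 73.1%, 81.4% and 74.3% of Il1r2 TPM, and a transcript annotated for nonsense-mediated decay, Il1r2-204, 25.4%, 17.3% and 21.9%. An antisense gene, Gm16894, overlaps Il1r2 with a mean of 3.20 TPM but shares 0 exonic bases with it. Of Il1r1 TPM, 90.1 ± 9.01% belonged to its full-length transcripts.

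Among the signalling components, Myd88 (ENSMUSG00000032508.8, chr9:119335934-119341411, minus strand), the adaptor that the TIR domains recruit, had 103.3, 100.3 and 85.3 TPM in libraries 1, 2 and 3. Irak4 (ENSMUSG00000059883.16, chr15:94543643-94581815, plus strand), the kinase that MyD88 engages first, had 20.8, 30.2 and 21.9 TPM. Irak1 (ENSMUSG00000031392.18, chrX:74013914-74023918, minus strand), the kinase that IRAK4 acts on, had 184.2, 171.4 and 119.8 TPM. Irak1 was thus the higher of the kinases in every library, and Irak4 over Irak1 had a log2 ratio of −2.65 ± 0.38. Traf6 (ENSMUSG00000027164.8, chr2:101678429-101701669, plus strand), the ubiquitin ligase downstream of them, had 32.5, 31.2 and 23.7 TPM. Myd88 exceeded Irak4 by a log2 ratio of 1.96 ± 0.28, and Traf6 lay below Myd88 with a ratio of −1.70 ± 0.09, the narrowest SD among the 10 pairs. In all, 7 of the 10 pairs differed beyond the spread, and the other 3 were Il18r1 with Il18rap, Il18r1 with Il1rl1 (−0.53 ± 0.79) and Il1r2 with Il1rl1.

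The adaptor genes also differed in how their RNA was divided. Myd88-201 took 97.1 ± 0.872% of Myd88 TPM, Traf6-201 95.4 ± 1.59% of Traf6 and Irak4-201 80.6 ± 3.23% of Irak4. Irak1 stood apart with 22 transcripts, of which the coding ones took 40.8 ± 1.17% and those annotated with a retained intron 57.3 ± 1.27%. By reads those shares were 51.7% and 47.9%, so the larger class turned with the scale. Coding transcripts of Irak1 alone came to 74.4, 68.4 and 50.45 TPM in libraries 1, 2 and 3. That was below full-length Il1r2 (99.1, 86.8 and 69.1 TPM) and coding Myd88 (99.4, 97.15 and 83.6 TPM) in each library. The first place of Irak1, and its step over Il1r2, thus hold for all transcripts together and not for coding ones. Twf1 on the opposite strand shares 395 exonic bases with Irak4 and averaged 14.4 TPM, and Acaa1a shares 290 with Myd88 and averaged 65.0 TPM. Whether the libraries kept strand is not given in the sources used here, so reads over those bases may not be assigned to the right gene.

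Differences between libraries were tested for each gene against counting error. In a chi-square test on rounded expected counts with 2 degrees of freedom, adjusted by the Benjamini-Hochberg method over 17190 genes, 9 of the 10 genes were called at 0.05, against a background of 79.8% of all genes tested. The exception was Il1rap (adjusted chi-square p = 0.115). Since most genes were called, that count says little about these 10, and size was used as well. The highest library exceeded the lowest over 2-fold in CPM for 3 of the 10, Il18rap (5.13-fold), Il1rl1 (3.71-fold) and Il18r1 (2.20-fold), against 10.9% of the 11109 genes that averaged at least 100 reads. Their ratios were wider than those of 98.9%, 98.0% and 92.0% of these genes. After removal of the length trend the 3 ratios were 4.52, 3.46 and 2.05, against a background of 9.81% over 2-fold.

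The remaining genes moved less. Il1r1 differed 1.85-fold, Irak4 1.46-fold, Il1r2 1.38-fold, Traf6 1.32-fold, Irak1 1.22-fold, and Myd88 and Il1rap 1.14-fold each. The median over the 10 genes was 1.42-fold, against 1.34-fold over all genes of 100 or more reads. In TPM, 6 of the 10 were highest in library 1, 4 in library 2 and 0 in library 3, where 36.3%, 34.4% and 29.2% of all tested genes were highest. Library 3 was lowest for 8 of the 10, against 46.2% of all tested genes, library 1 for 2 (Il1rap and Irak4), against 27.2%, and library 2 for 0, against 26.5%. The chi-square test measures counting error alone. The spread common to all genes of these libraries (edgeR's common dispersion, a coefficient of variation of 0.376) was therefore also added to its variance. Then 0 of the 10 genes and 3.10% of all genes were called. An unadjusted chi-square p under 0.05 was then found for 2 of the 10 genes and for 1457 of all 17190 genes tested. Without library 3, 5 of the 10 were called, against 54.3% of the 16415 genes then tested, so that count is near the background. Only Il1rl1 was then over 2-fold, a count for which no share over all genes is given here. The ratios left were 1.66 for Il18rap and 1.19 for Il18r1 without library 3, 1.71 for Il1rl1 without library 2, and 1.85 for Il18r1 without library 1.

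**Figure D3:**
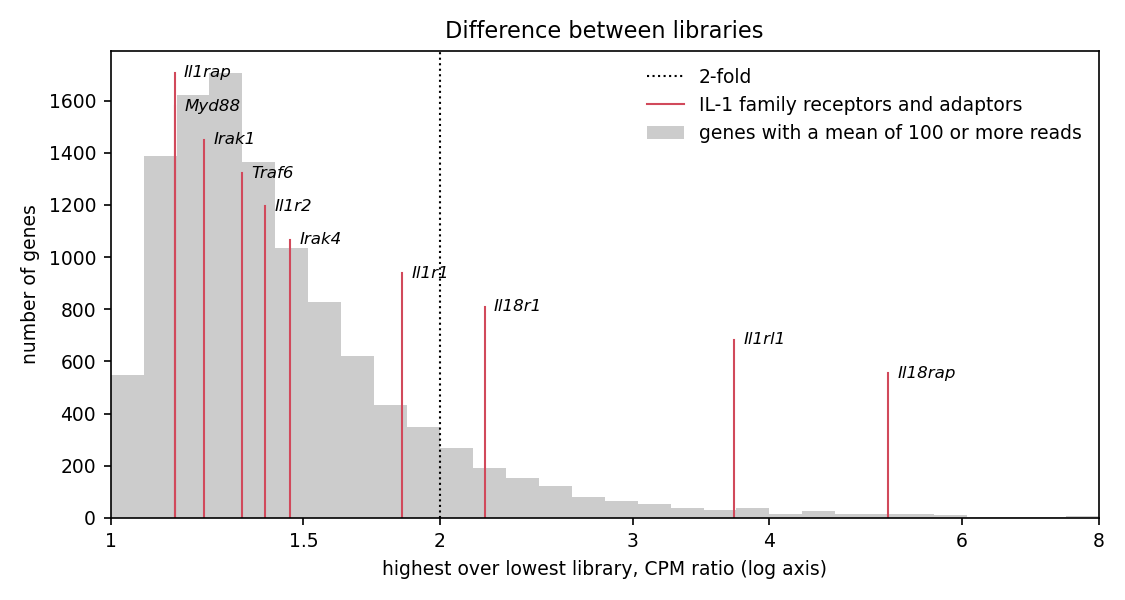
Number of genes by the ratio of the highest over the lowest library in CPM (log axis), for genes averaging at least 100 reads, with red lines at the 10 genes and a dotted line at 2-fold. Line heights only keep the names apart, and 73 genes lie beyond the axis. Il18r1, Il1rl1 and Il18rap lie right of the 2-fold line and the other 7 left of it, with the Myd88 and Il1rap lines drawn over each other.

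Of the 10 genes, 5 lie in 1 cluster on chromosome 1, all on the plus strand, over 477.6 kb from the start of Il1r2 to the end of Il18rap. Only 136 bases separate the annotated end of Il1rl1 from the start of Il18r1. Within 200 kb of the cluster the annotation gives 9 protein-coding genes, and 7 of them were detected, against 48.1% of all protein-coding genes. That count includes the 5 clustered genes, already reported as detected, so it says little about the region. Of the others, Map4k4 and Il1rl2 were detected, and Slc9a4 and Slc9a2 were not. Going along the plus strand, the kinase gene Map4k4 averaged 80.05 TPM, Il1r2 111.8, Il1r1 1.80, the IL-36 receptor gene Il1rl2 5.21, Il1rl1 65.3, Il18r1 42.2 and Il18rap 25.6 TPM, and the sodium-proton exchanger genes Slc9a4 and Slc9a2 had 0.0033 and 0.0267 TPM. Low and high genes thus lay side by side in the cluster, with Il1r1 and Il1rl2 low between Il1r2 and Il1rl1. All 7 detected genes had their lowest TPM in library 3, against 46.2% of all tested genes, and 5 of them were already counted above among the 10 genes. The others were Map4k4, with 52.1 TPM against 95.1 and 92.9 TPM in libraries 1 and 2, and Il1rl2, with 2.16 against 8.11 and 5.37 TPM.

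**Figure D4:**
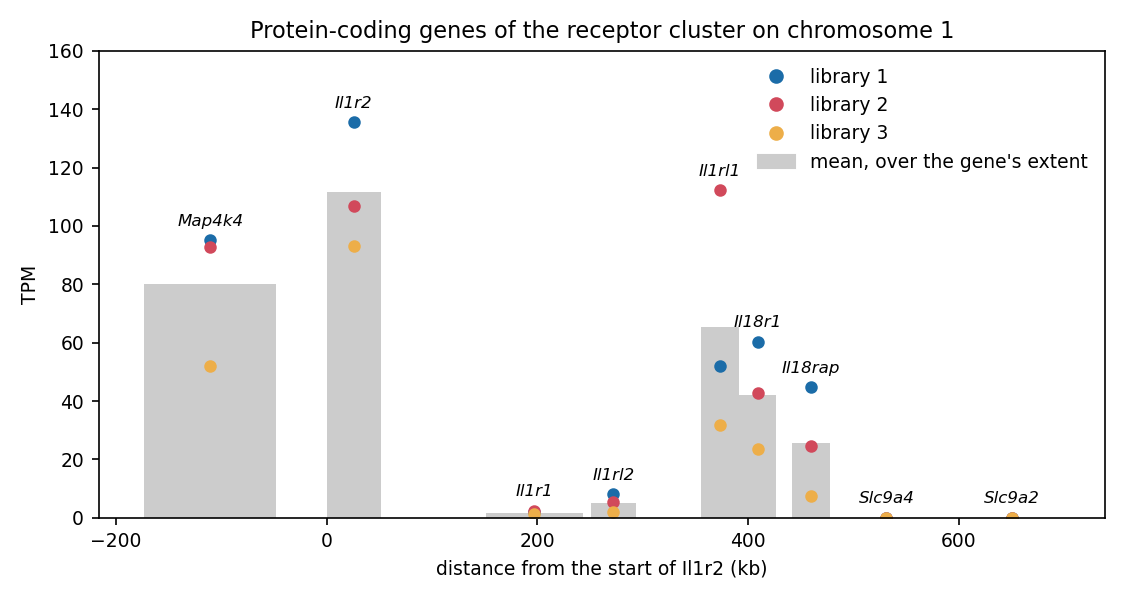
TPM of the 9 protein-coding genes of the chromosome 1 cluster by distance in kb from the start of Il1r2, with a grey block over the extent of each gene at its mean and 1 point per library. Il1r2, Il1rl1, Il18r1 and Il18rap rise above Il1r1 and Il1rl2, and the points of Slc9a4 and Slc9a2 lie at the axis.

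The ligands of the family were mostly not detected. Of 10 ligand and antagonist genes, 1 passed, Il18, with 6.95, 6.31 and 6.19 TPM in libraries 1, 2 and 3. Il1a had 0.81, 1.07 and 1.96 TPM, the receptor antagonist Il1rn 1.27, 0.64 and 1.94 TPM, and Il1b 0.99, 0.48 and 0.17 TPM. Il1a and Il1rn were highest in library 3 and Il1b lowest there. Il33, the ligand of ST2, had 0.02 TPM in library 1 and 0 in the others, Il36a 0.05 TPM in library 3 alone and Il36rn 0.03 TPM in library 1 alone. Il36b, Il36g and Il1f10 had 0 reads in all libraries, which allows up to 3 reads in each.

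Of the 5 other receptors and decoys, 3 were detected. Sigirr, an inhibitory receptor of the family, had 196.9, 230.3 and 152.0 TPM in libraries 1, 2 and 3 and so exceeded all 10 genes in each library. As log2(TPM + 1), Sigirr stood 1.72 ± 0.62 above Il1rl1, 2.24 ± 0.49 above Il18r1 and 6.12 ± 0.01 above Il1r1, all beyond the spread. In TPM it exceeded Il1r1 105.3, 98.4 and 127.8-fold in libraries 1, 2 and 3. The narrow SD over Il1r1 thus holds only with the added 1 TPM, and the TPM ratio was not constant. The pairs with Sigirr were chosen after the values were seen. Il18bp, the secreted IL-18 decoy, had 12.1, 6.66 and 6.93 TPM, and Il1rl2 5.21 TPM on average. The neuronal receptors Il1rapl1 and Il1rapl2 stayed at 0.05 TPM or less.

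Among 12 other adaptors and brakes of the receptor complex, 10 were detected, with a median of 33.3 TPM over all 12, against a median of 30.1 TPM over the detected protein-coding genes. The ubiquitin ligase gene Peli1, whose product modifies IRAK1, led with 258.5, 260.9 and 259.9 TPM, followed by Spop at 116.3, Otulin at 89.5 and Cyld at 80.2 TPM on average. The last 2 encode deubiquitinases that restrain NF-kappaB signalling. At the low end, Tirap had 3.31, 4.08 and 0.91 TPM and Peli3 0.44, 0.74 and 0.73 TPM, and neither counted as detected. All 12 were called in the adjusted chi-square test between libraries, against the 79.8% background. All 16 downstream kinases, ubiquitin enzymes and NF-kappaB genes were detected, with a median of 58.5 TPM. Ube2n and Ube2v1, which together build the ubiquitin chains of TRAF6, averaged 251.4 and 218.1 TPM, Ikbkb 129.5 and the NF-kappaB subunit Rela 128.6 TPM, while Mapk8 at 10.6 and Tab3 at 8.51 TPM were lowest.

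**Figure D5:**
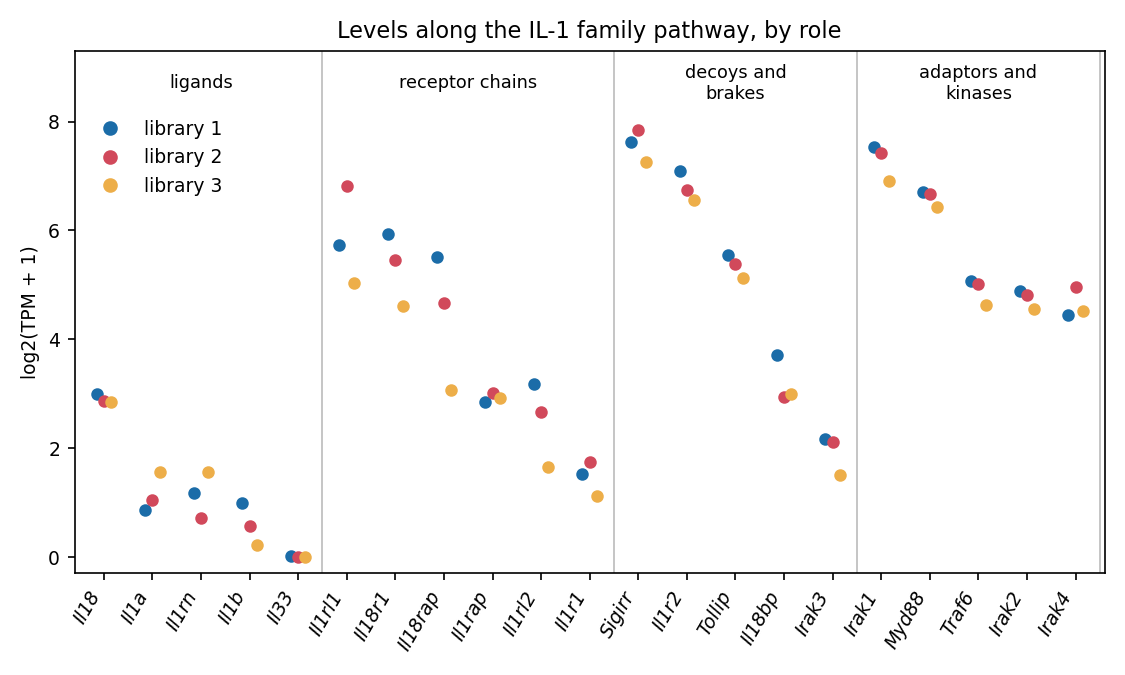
Levels as log2(TPM + 1) of genes grouped by role, with 1 point per library. Il18 stands above the other ligands, Il1r1 is the lowest receptor chain, Sigirr and Il1r2 lead the decoys and brakes, and Irak1 and Myd88 lead the adaptors and kinases.

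Genes linked to ST2 Treg were all detected, 9 of 9, with a median of 33.7 TPM. The transcription factor genes Batf and Gata3 averaged 255.2 and 144.5 TPM, the chemokine receptor gene Ccr8 92.4 TPM and Nfil3 43.3 TPM, and the lowest were Pparg at 11.4 TPM and the tissue-repair ligand Areg at 8.60 TPM. All 9 had their lowest TPM in library 3, against 46.2% of all tested genes. So did 13 of the 16 downstream kinases, ubiquitin enzymes and NF-kappaB genes, and 3 of the 8 Treg identity genes. With 3 technical libraries, no likeness of pattern between genes can be read from these counts. Cd3e and Tnfrsf4 were the highest of the Treg identity genes, at 973.2 and 724.1 TPM.

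Other cell types carry these receptors as well, so their markers were read in the same libraries. Mast cell and basophil markers, cells that also carry ST2, were detected for 1 of 8, Kit at 6.72, 5.50 and 3.46 TPM, with Cpa3 next at a mean of 0.30 TPM. Mcpt8, Cma1 and Tpsb2 had 0 reads in every library. The list summed to 7.10, 5.86 and 4.25 TPM in libraries 1, 2 and 3, most of it Kit, which had 517, 249 and 253 reads. Of 6 group 2 innate lymphoid cell markers 3 were detected, led by Arg1 at 13.8 and Il9r at 9.73 TPM, and their sums were 37.3, 35.3 and 19.1 TPM. Natural killer cell markers, cells that carry the IL-18 receptor, were detected for 4 of 7, with sums of 34.6, 41.2 and 28.6 TPM, Gzma at 22.7 and Prf1 at 6.62 TPM on average, and 0 reads of Ncr1.

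Neutrophil markers, of cells that carry Il1r2, were detected for 0 of 8, with sums of 16.3, 1.90 and 3.77 TPM in libraries 1, 2 and 3, led by Retnlg at 2.64 and S100a9 at 2.21 TPM and with Elane at 0 reads. Monocyte and macrophage markers, whose cells can also carry Il1r2, were detected for 7 of 8 and summed to 253.3, 160.8 and 144.5 TPM, with Ccr2 at 59.2 and Lyz2 at 47.4 TPM. B cell markers were detected for 4 of 5 (Ighm at 295.1 and Cd79a at 11.6 TPM; sums of 348.0, 255.4 and 336.1 TPM), CD8 T cell markers for 2 of 2 (Cd8b1 at 22.1 and Cd8a at 2.86 TPM; sums of 26.2, 20.4 and 28.4 TPM) and stromal, endothelial and epithelial markers for 2 of 8 (Pecam1 at 80.4 and the epithelial Epcam at 8.65 TPM; sums of 93.85, 87.9 and 91.0 TPM). Pecam1 made up most of the last sums, and apart from it and Epcam that list averaged 0.85 TPM (Col1a1) or less per gene. Red cell markers were led by Hbb-bs at 1884 and Hba-a2 at 1709 TPM. In these bulk libraries fewer cells of a type and less RNA per cell cannot be told apart, and the part of such cells in the levels above was not tested.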

How the data were processed

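Polyadenylated RNA of activated Treg was read from 3 technical libraries of 1 biological replicate. Each library had a gene table and a transcript table on mm10 with GENCODE M21, and a smaller gene table with GENCODE M4. Expected counts as deposited are the authors' estimates of reads per gene or transcript, not normalized, and the posterior mean columns are their second estimate of those estimated counts and of TPM. The authors' TPM is divided by length and sums to the same total in each library over 81881 entries, and the FPKM they deposited is divided by length and reads. The smaller deposited table holds whole-number read counts for 22457 genes, was used as an alternative only, and divides nothing by length. For the aligner, counter, kit and strandedness, no name was given in the sources used here. Entries other than mouse genes (26345, with 0.166% to 0.229% of reads) were left out.

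The genes, lists, pairs and alternatives were chosen with earlier results of these data known. All 129 list genes matched a symbol, 4 of them through another RefSeq symbol. Named are the 10 genes, the 4 highest and 2 lowest of each pathway list and any not detected, the 2 highest of each marker list and any at 0 reads, and protein-coding genes of the cluster; others are named where the text says so or where another list or a figure holds them. Expected counts were rounded for TMM normalization (edgeR 4.0.16 in R 4.3.3) and a chi-square test of the 3 libraries in genes averaging at least 10 reads, with Benjamini-Hochberg adjustment. A quasi-likelihood contrast needs a second group and was not made. Pairs were compared as log2(TPM + 1) differences. Alternatives were DESeq2 1.42.0 size factors, total reads, no read minimum or 50 reads, posterior mean values, FPKM, a pseudocount of 0.1, 3 SD, 0.5 TPM, the smaller table, edgeR's common dispersion, and each library left out. After the data were seen, removal of the length trend and deposited TPM for the ratio between libraries were added. Transcript shares are percent of the gene's deposited transcript TPM. Each limit in reads covers counting error only. The level of the deposited TPM limits is not given in the sources used here. Coding sequences came from GENCODE M21 transcripts and promoters from RefSeq. Python 3.11.15, numpy 2.4.6, scipy 1.17.1, pandas 2.3.3 and matplotlib 3.10.9 were used.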

Additional observations from a re-analysis of the deposited data

How the results depend on the processing

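Of 564 alternative values for 83 results, 503 kept their side of the threshold, 25 lost a call, 15 gained one and 21 shares moved by more than 1 SD. No called value changed sign, but 4 of 152 log2 ratios, none past 2 SD, did: Il18r1 over Il1rl1 was 0.25 (also counted as Il1rl1 over Il18r1, −0.25) in the smaller table per effective length, and without library 3 Traf6 over Il18rap was −0.06 and Il18rap over Irak4 0.39. Il1r2 over Il1rl1 passed 2 SD at 1.97 in the smaller table per effective length, and ranged from 0.65 to 1.44 with 1 library left out. Il18r1 over Il18rap ranged from 0.60 to 1.16. The count of the 10 genes that differed between libraries was 0 with the common dispersion in the variance (0 of 10). There 2 of the 10 had an unadjusted chi-square p under 0.05, against 1457 of all 17190 genes tested. With 1 library left out, the count was 9 without library 1 or library 2 and 5 without library 3. Of all genes tested, 65.1%, 66.1% and 54.3% were called without libraries 1, 2 and 3. In the smaller table the count was 8, without Il1r1 and Myd88 and with Il1rap, where 64.9% of 12026 genes were called. The count over 2-fold ranged from 1 to 2 with 1 library left out. In the smaller table with all libraries it was 2, since Il18r1 differed 1.73-fold there. As shares of expected counts, which are not divided by length, Il1rl1 membrane was 87.9% and soluble 11.6%, Il18r1 short 40.7%, Il1rap membrane 90.5% and Il1r2 full-length 82.4%. With posterior mean TPM the Il1rap membrane share was 76.7%. Ligands detected numbered 3 at 0.5 TPM and ranged from 1 to 2 with 1 library left out. The cause of these changes was not tested, other than length for shares. No paired analysis was possible because there was 1 group. With technical libraries of 1 biological replicate, differences between animals could not be measured, and at 113 to 175 reads Il1r1 limits the precision of its ratios and forms.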
